A study of Mus musculus with 6 samples.

Results

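Chromatin and histone modifier genes add, remove or read chemical marks on DNA and histones, or move nucleosomes. Of the genes with names of such families, 23 were nearest to cytosines whose methylation differed in mouse blood progenitors without Tet1. They were taken by gene symbol alone, so not every member acts on chromatin, and the product of Sirt4 works in mitochondria. Members were the genes whose name starts with any of a set of family prefixes, such as Kdm, Hdac, Mll, Kmt, Chd, Cbx, Ezh, Sirt, Kat, Dnmt, Tet, Mbd, Gadd45, Arid, Brd, Prmt, Ehmt or Cxxc and a digit, or with Setd, Smarc, Asxl, Suv or Gadd45. They held 35 of the 6756 cytosines and 23 of the 3344 nearest genes in the authors' deposited tables. The rule names no measured value, but a gene had to have a listed cytosine to be a member.

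The tables come from enhanced reduced representation bisulfite sequencing, which reads methylation mainly in CpG-rich sequence, of LSK cells sorted from mouse bone marrow. LSK cells carry Sca-1 and Kit without mature lineage markers and hold the blood stem and progenitor cells. There were 3 samples of genotype Tet1 KO and 3 of genotype WT, all from mice aged 6 months of the strain written CD57BL/6 in the labels. The labels do not state how Tet1 was inactivated, nor whether each sample was a separate mouse. Each table row is a single cytosine with 1 value, the Tet1 KO methylation minus the WT methylation in percentage points, and an absolute value of at least 25. No value per sample was used here. The spread between replicates, the read depth and a test per cytosine could therefore not be given, and the identity of the cells could not be checked against marker genes. A site is hypermethylated where the Tet1 KO value was higher and hypomethylated where it was lower, a direction read from the list names and signs. A gene is named because its transcription start is the nearest, which does not make it a regulated gene.

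Methylation at CpG dinucleotides is written by DNA methyltransferases and oxidised by the TET dioxygenases, which starts its removal. TET1 and several histone-modifying proteins find unmethylated CpG-rich sequence through a CXXC zinc finger. Histone marks have their own writers, erasers and readers, and many of these genes are mutated in blood cancers. Promoters of broadly expressed genes are usually CpG-rich and unmethylated, but not all members are such genes.

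The members followed the direction of the tables as a whole. Of their 35 sites, 32 were hypermethylated in Tet1 KO cells and 3 hypomethylated, so 91.4% were gains (95% interval by the exact Clopper-Pearson method, 76.9 to 98.2%, for counting error alone), against 92.8% of all listed sites. Hypermethylated sites alone were found at 21 of the 23 genes (91.3%), against 87.0% of all 3344 genes in the tables. Kdm4c was among the other 2. In the GRCm38.p6 RefSeq table, 153 protein-coding genes have a name under the rule, and the 23 members were 15.0% of them (exact interval 9.77 to 21.7%), against 13.7% of all 21900 protein-coding genes. These shares lay near those of all genes, and no result about the members is read from them. A gene outside the tables may have been unchanged or unread, since cytosines below the list minimum are not analysed here.

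The gains were also of ordinary size. The 32 hypermethylated sites had a median of 41.2 percentage points by the authors' deposited table, with quartiles at 33.1 and 50.3, against a median of 41.1 for all 6270 listed gains. The range was 27.5 to 64.3 percentage points, against 25.0 to 97.6 over the whole table. Only 1 of the 32 (3.13%) reached 60 percentage points, against 12.3% of all gains. That site lay 3220 bp upstream of Smarcd1. Sites of a gene share cells and often reads, so these values describe the lists and are not replicates. Of the 23 genes 15 had a single site (65.2%), against 58.2% of all genes, and the most sites, 4, were nearest to Cxxc4.

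**Figure D1:**
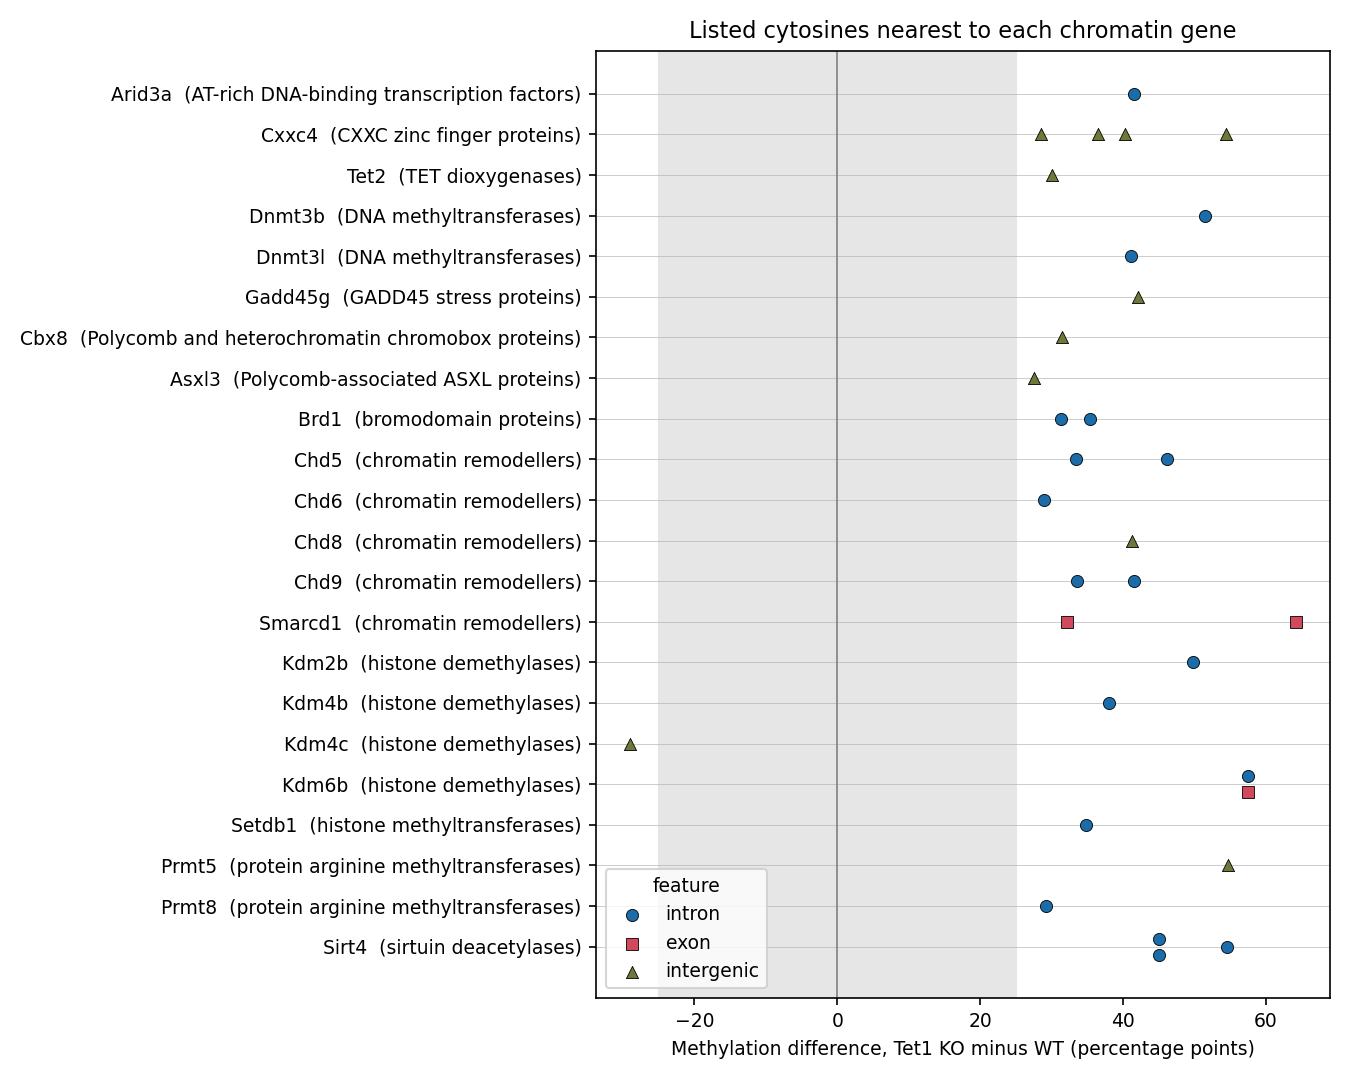
Methylation difference (Tet1 KO minus WT, percentage points) of 32 of the listed cytosines, at 22 genes, with 1 row per gene ordered by role and the marker giving the annotated feature; the grey band holds no listed site, because the tables begin at 25 percentage points. All sites shown stand to the right of the band except for the site of Kdm4c. Sites of a gene under 1 percentage point apart are set above each other.

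Among the genes that write, erase and read DNA methylation, all 7 listed cytosines were gains, where 92.8% of all listed sites were gains. Of the 7, 5 were intergenic, and 4 of these were the Cxxc4 sites, which span 95 bp. The family counts that follow stand against 13.7% of all protein-coding genes listed, and nothing is read from counts this small. Of the 3 TET genes, Tet2, a dioxygenase often mutated in myeloid malignancy, was nearest to 1 site, while Tet1 and Tet3 were nearest to none. Of the 4 DNA methyltransferase family genes, Dnmt3b and Dnmt3l were listed, and Dnmt1 and Dnmt3a were not. None of the 8 genes with an Mbd name, mostly readers of methylated CpG, was listed. Of the 3 Cxxc genes, Cxxc4 was listed; its product binds CpG-rich DNA and lowers TET2 protein. The sequences before the starts of Tet2 and Cxxc4, 250 bases each, show how CpG-rich these starts are. They are from RefSeq for GRCm38.p6 (chr3:133544391-133544640, minus strand, and chr3:134236245-134236494, plus strand), run 5′ to 3′ towards the start, and have CpG dinucleotides in capitals.
Tet2: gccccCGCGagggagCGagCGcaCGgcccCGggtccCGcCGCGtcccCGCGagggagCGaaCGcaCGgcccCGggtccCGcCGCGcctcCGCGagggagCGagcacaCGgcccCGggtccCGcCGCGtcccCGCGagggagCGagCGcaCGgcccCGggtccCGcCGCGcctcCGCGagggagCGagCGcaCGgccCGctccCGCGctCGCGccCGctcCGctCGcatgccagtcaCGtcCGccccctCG
Cxxc4: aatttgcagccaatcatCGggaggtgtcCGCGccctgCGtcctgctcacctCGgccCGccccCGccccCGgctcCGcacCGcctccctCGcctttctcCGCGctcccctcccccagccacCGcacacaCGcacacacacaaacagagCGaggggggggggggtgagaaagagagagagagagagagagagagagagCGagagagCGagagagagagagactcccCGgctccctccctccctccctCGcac
The Tet2 window holds 51 CpGs and the Cxxc4 window 20, and 0.0670% and 17.9% of all 32851 windows in the RefSeq table hold at least as many. No listed site lay in the promoter of either gene.

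Tet2 and Cxxc4 are neighbours on chromosome 3 and are read away from each other. In vertebrate evolution the CXXC finger of the ancestral TET2 gene became the separate gene Cxxc4. The starts derived from the files' positions and distances (mm9) are 692105 bp apart, at 133207354 for Tet2 and 133899459 for Cxxc4, with strands from the RefSeq table. No protein-coding gene stands between them in that table, which places 7 genes of other kinds there. All 5 listed cytosines nearest to these genes lay in this gap, were intergenic and were hypermethylated in Tet1 KO cells. The gap held no other listed cytosine. With no protein-coding gene between, the rule of the nearest start makes that likely, and nothing is read from it. Over the whole lists, 92.8% of sites were gains. The Tet2 site, at 133417580, was 210226 bp upstream of Tet2 and differed by 30.1 percentage points by the authors' deposited table. The Cxxc4 sites formed a cluster of 95 bp, from 133852983 to 133853078, 46381 to 46476 bp upstream of Cxxc4. In the authors' deposited table they differed by 40.3, 28.5, 36.5 and 54.4 percentage points in order of position. The first pair of these values belongs to the opposite strands of the same CpG, 1 bp apart, and both strands gained.

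**Figure D2:**
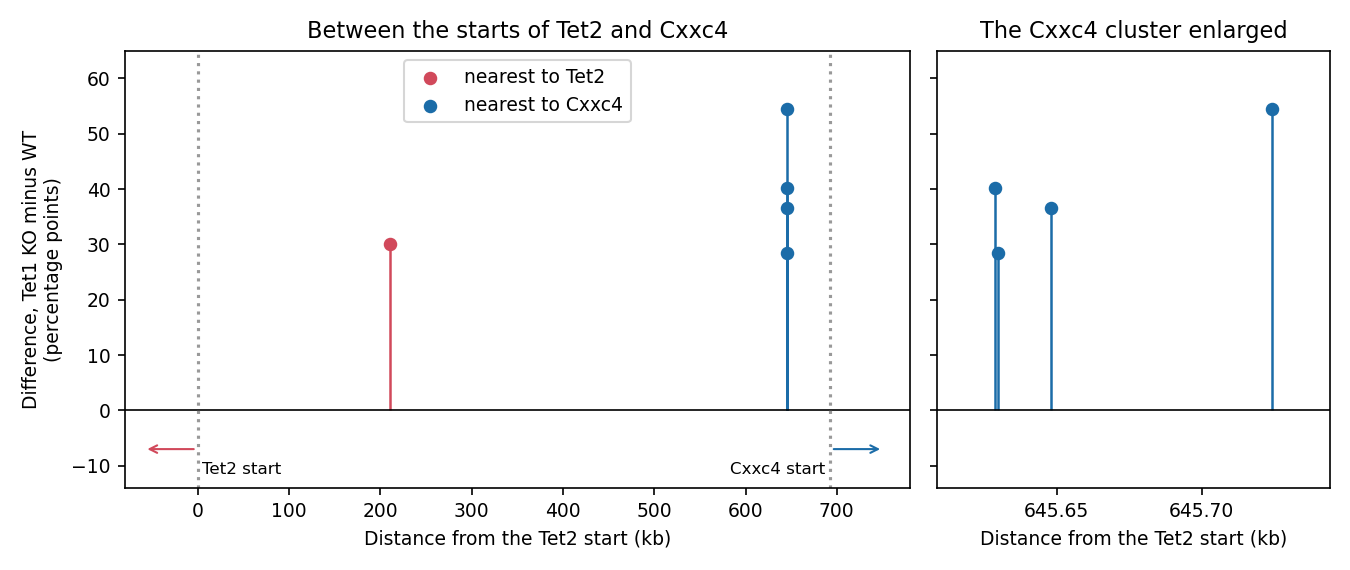
Methylation difference (Tet1 KO minus WT, percentage points) of the 5 listed cytosines between the starts of Tet2 and Cxxc4, by distance from the Tet2 start in kb; arrows give the direction of transcription, and the panel on the right enlarges the Cxxc4 cluster. All 5 values lie between 28.5 and 54.4 percentage points, and 4 of them fall within 95 bp.

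The DNA methyltransferase sites were near starts, inside the genes. Dnmt3l, an inactive relative that stimulates the de novo methyltransferases in germ cells, had 1 site in intron 1 of 13, 183 bp after its start (chromosome 10, 77505215, mm9). It differed by 41.2 percentage points by the authors' deposited table and was the member site closest to any start. Dnmt3b, a de novo methyltransferase, had 1 site in intron 2 of 22, 1558 bp after its start (chromosome 2, 153476748), with 51.5 percentage points by the authors' deposited table. Sites within 2000 bp of a start were a smaller share of member sites, 6 of 35, than of all listed sites, 2300 of 6756. Whether these shares differ was not tested. Gains and downstream sites within 2000 bp were not counted over the whole lists, where 92.8% of sites at any distance were gains. The 6 member sites, at 5 genes, were all downstream of the start and all gains, from 31.3 to 51.5 percentage points. The other genes were Setdb1, Kdm4b and Brd1, and Brd1 held 2 of the 6 sites, 20 bp apart. For those of the 5 with a single window in the RefSeq table, Dnmt3b, Setdb1 and Brd1, the 250 bases before the start (GRCm38.p6, chr2:153649199-153649448, plus strand; chr3:95357203-95357452, minus strand; chr15:88734220-88734469, minus strand; CpGs in capitals) are shown as the promoter sequence; these starts were not matched to the mm9 starts of the tables.
Dnmt3b: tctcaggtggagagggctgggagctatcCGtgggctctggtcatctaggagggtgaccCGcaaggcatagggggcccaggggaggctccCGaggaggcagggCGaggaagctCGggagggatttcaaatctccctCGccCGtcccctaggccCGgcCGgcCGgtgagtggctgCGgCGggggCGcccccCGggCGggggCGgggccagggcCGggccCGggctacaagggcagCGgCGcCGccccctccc
Setdb1: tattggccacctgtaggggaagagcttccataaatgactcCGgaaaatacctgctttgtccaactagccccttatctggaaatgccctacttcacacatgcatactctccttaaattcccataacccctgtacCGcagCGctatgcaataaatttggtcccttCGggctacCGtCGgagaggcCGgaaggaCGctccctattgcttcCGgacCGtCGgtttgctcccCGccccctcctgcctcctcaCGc
Brd1: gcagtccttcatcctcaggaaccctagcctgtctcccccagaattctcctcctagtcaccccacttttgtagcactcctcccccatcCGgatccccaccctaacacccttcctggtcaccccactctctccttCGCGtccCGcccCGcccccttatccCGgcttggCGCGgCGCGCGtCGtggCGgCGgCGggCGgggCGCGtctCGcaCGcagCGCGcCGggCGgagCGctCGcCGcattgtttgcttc
These windows hold 21, 13 and 27 CpGs in that order, and 16.3%, 31.5% and 8.56% of all windows hold at least as many. Windows were found for 18 of the 23 members, 27 windows in all, with a median of 20 CpGs, against 6 over all 32851 windows. The letters CCGG, the same on both strands and cut by MspI, the enzyme commonly used in this kind of assay, occur in 21 of the 27 (77.8%), against 47.1% of all windows. The windows of other listed genes were not set apart, so whether these traits are particular to the members was not tested. The windows of a gene with several starts can overlap, the labels do not name the enzyme used, and the presence of the letters does not show that a window was read.

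None of the 35 member sites was annotated to a promoter, against 10.7% of all listed sites. A count of 0 in 35 allows a share of up to 8.57% by a floor of 3 counts and up to 10.003% by the exact interval, for counting error alone and with sites taken as independent, which neighbouring sites are not. Introns held 20 sites (57.1%, exact interval 39.4 to 73.7%), against 31.7% of all listed sites. Intergenic sequence held 12 (34.3%), against 36.7%, and exons held 3 (8.57%), against 19.1%. No member site was in a labelled CpG island, against 4.25% of all listed sites, a label that the files give to intron and intergenic sites alone. Repeats held 6 sites (17.1%), all 6 in introns or intergenic sequence, against 8.20% of all listed sites. Introns and intergenic sequence together hold more of the member sites than of all listed sites. The repeat share over those features alone was not computed. Whether these shares differ was not tested. The median distance to the start was 12434 bp, against 8261 bp for all listed sites.

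**Figure D3:**
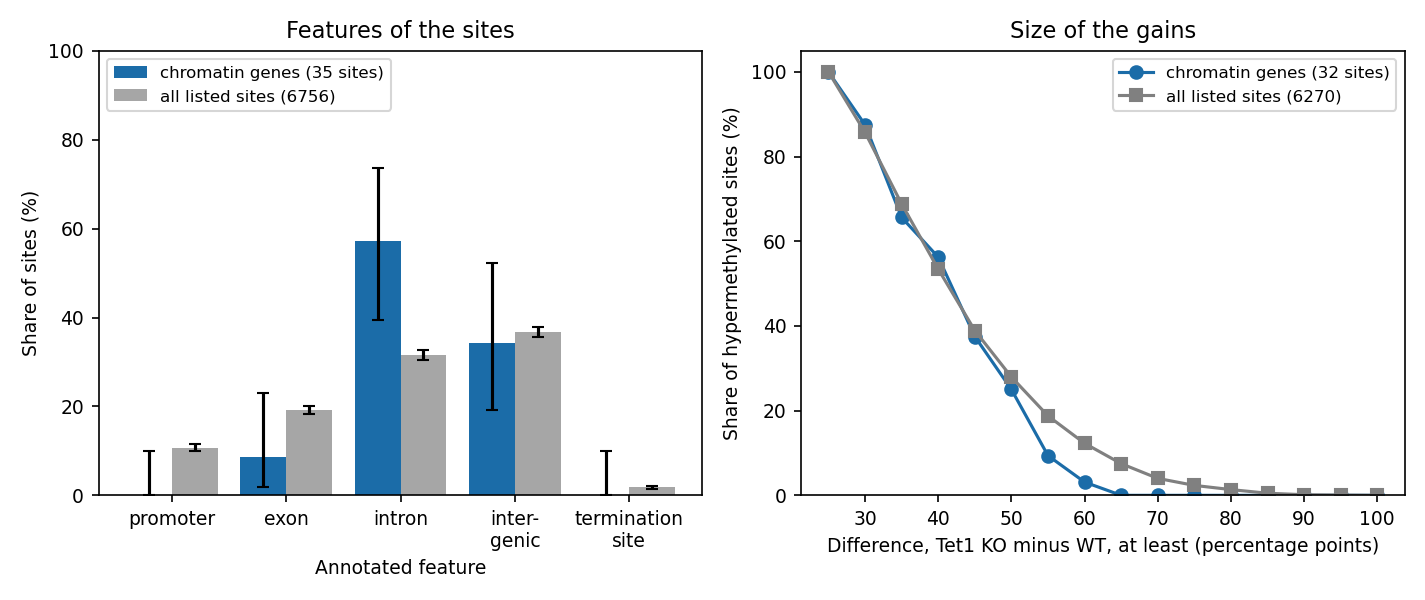
Left, share of sites (%) in each annotated feature for the 35 sites of the chromatin genes and for all 6756 listed sites, with exact 95% binomial intervals as error bars; right, share of hypermethylated sites (%) whose difference (Tet1 KO minus WT) reaches each threshold in percentage points. Introns hold 57.1% of the chromatin gene sites and promoters none, and the curves on the right run together up to 50 percentage points, with 25.0% of chromatin gene gains and 27.9% of all gains there.

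The nearest start was not always that of the gene around a site. Of the 35 sites, 18 lay inside a transcript of the named gene, at 12 genes, and all 18 were in introns. A further 5 lay inside a transcript of another gene, at 3 members, and 12 were intergenic, at 9 members. Of the intergenic sites 10 were upstream of the start, 4 of them the Cxxc4 sites, and 2 downstream. Upstream sites of any feature were 45.7% of member sites, against 37.0% of all listed sites. Over the whole lists, 2826 of 6756 sites lay in an intron, exon or termination site of their nearest gene. Whether these shares differ was not tested. The 3 exon sites of the members were all in exons of other genes. Under the rule of the nearest start, no listed cytosine therefore fell in an exon of a chromatin gene.

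**Figure D4:**
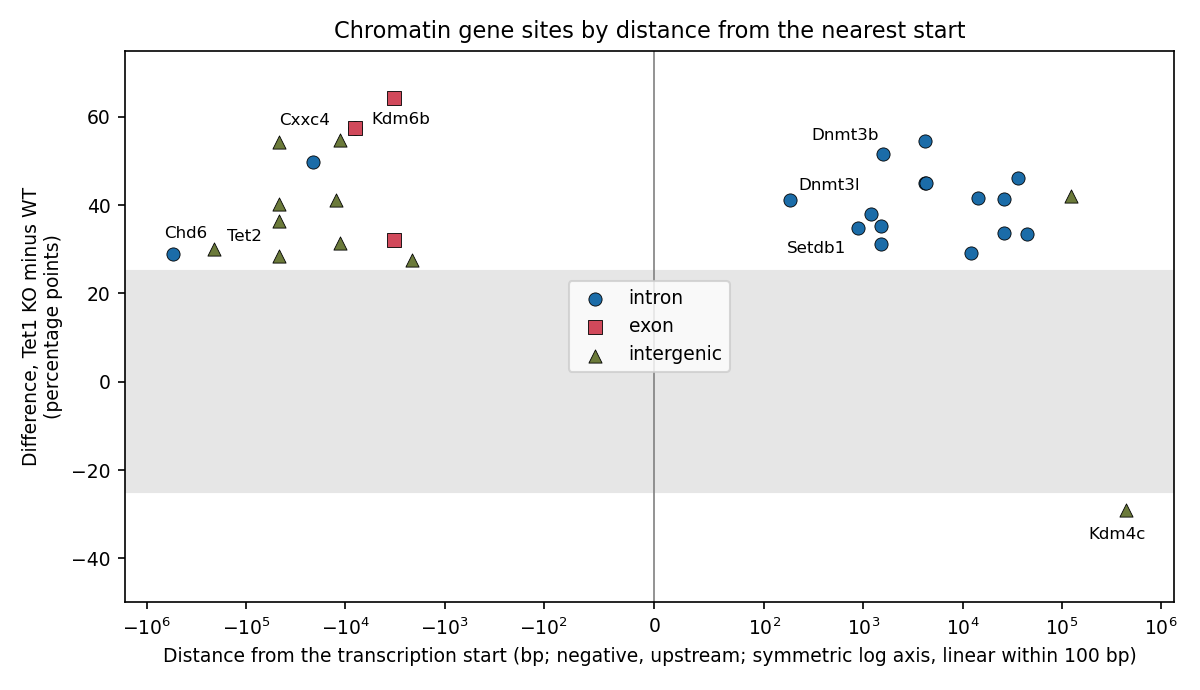
Methylation difference (Tet1 KO minus WT, percentage points) of 32 sites at 22 genes against their distance from the nearest transcription start in bp, on a symmetric log axis that is linear within 100 bp; negative distances are upstream, the marker gives the feature, and some genes are named. The closest site is that of Dnmt3l at 183 bp, and the hypomethylated site shown, that of Kdm4c, is 446795 bp from a start.

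Histone demethylases were listed for 4 of 18 genes, against 13.7% of all protein-coding genes, with 4 gains from 38.0 to 57.5 percentage points and 1 loss. Kdm6b, a demethylase that removes a Polycomb mark, was nearest to 2 sites 15 bp apart (chromosome 11, 69235231 and 69235246, mm9). Both differed by 57.5 percentage points by the authors' deposited table, the second largest value of any member gene. They lay 8054 and 8069 bp upstream of Kdm6b, in intron 83 and exon 83 of Dnah2, an axonemal dynein gene. Kdm2b, a CXXC finger protein that brings a Polycomb complex to unmethylated CpG islands, had 1 site in intron 11 of 22, in a B1 SINE element (chromosome 5, 123371575). It differed by 49.8 percentage points by the authors' deposited table and lay 21216 bp upstream of a shorter Kdm2b transcript. Kdm4b, which acts on heterochromatin marks, had 1 site in intron 1 of 22, 1195 bp after its start, with 38.0 percentage points by the authors' deposited table. Its relative Kdm4c was nearest to 1 hypomethylated site, at -29.1 percentage points by the authors' deposited table. The Kdm4c site was in an L1 LINE element, intergenic and 446795 bp beyond the start (chromosome 4, 74344578).

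Under the rule, 0 of 11 histone deacetylase genes, 0 of 8 histone acetyltransferase genes and 1 of 7 sirtuin genes were listed, against 13.7% of all protein-coding genes. Nothing is read from counts this small. Sirt4, a sirtuin whose product works in mitochondria and not on chromatin, had 3 sites in intron 3 of 4 (chromosome 5, 115930042 to 115930153). They differed by 45.1, 45.0 and 54.6 percentage points by the authors' deposited table, spread over both strands and 111 bp, and the first lay in a B2 SINE element.

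Histone methyltransferases had 1 of 24 genes listed and arginine methyltransferases 2 of 8, against 13.7% of all protein-coding genes. The histone methyltransferase gene was Setdb1, which places the heterochromatin mark at retroelements, with a site in intron 1 of 21, 873 bp after a start (chromosome 3, 95160251, mm9). It differed by 34.8 percentage points by the authors' deposited table. None of the Ezh, Ehmt, Kmt or Suv genes was listed. The arginine methyltransferase genes were Prmt5 and Prmt8. Prmt5, which methylates histones and splicing proteins, had an intergenic site 11475 bp upstream (chromosome 14, 55147782) with 54.7 percentage points by the authors' deposited table. Prmt8, a membrane-bound enzyme of neurons, had a site in an LTR element in intron 1 of 9 (chromosome 6, 127706918) with 29.3 percentage points by the authors' deposited table.

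Nucleosome remodellers had 5 of 28 genes listed, against 13.7% of all protein-coding genes. Their 8 sites were all gains, from 28.9 to 64.3 percentage points, where 92.8% of all listed sites were gains. Of these genes 4 belong to the CHD family of ATP-dependent remodellers, which has 10 genes under the rule. Chd5, a tumour suppressor gene expressed mainly in the nervous system, had sites in introns 21 and 35 of 41, with 46.2 and 33.4 percentage points by the authors' deposited table. Chd9 had 2 sites 7 bp apart in intron 2 of 39, with 41.5 and 33.6 percentage points by the authors' deposited table. Chd8, a regulator of Wnt target genes, had an intergenic site 12434 bp upstream (chromosome 14, 52869681, mm9) with 41.2 percentage points. The Chd6 site was 553152 bp from Chd6, in a LINE element in intron 14 of 29 of Ptprt, a receptor phosphatase gene, with 28.9 percentage points by the authors' deposited table. Smarcd1, a subunit of the BAF remodelling complex, had 2 sites 14 bp apart on the same strand, at 99529484 and 99529498 on chromosome 15. Their values in the authors' deposited table were 32.1 and 64.3 percentage points, the lower of them under the member median and the higher the largest value of any member. Both were in exon 12 of 12 of Asic1, an acid-sensing ion channel gene, 3234 and 3220 bp upstream of Smarcd1.

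The bromodomain, chromobox, ASXL, AT-rich and GADD45 groups had 1 listed gene each, of 9, 8, 3, 5 and 4 in that order against 13.7% of all protein-coding genes. The groups were made by name, so Brd3os counts among the 9 and Gadd45gip1 among the 4. Their sites were gains from 27.5 to 42.1 percentage points, where 92.8% of all listed sites were gains. Brd1, a bromodomain scaffold of histone acetyltransferase complexes, had 2 sites in intron 1 of 12, 1516 and 1496 bp after its start (chromosome 15, 88563133 and 88563153, mm9). They differed by 31.3 and 35.4 percentage points by the authors' deposited table, in order of position. Cbx8, a chromobox subunit of Polycomb complexes, was 1 of 8 Cbx genes and had an intergenic site 11352 bp upstream with 31.4 percentage points by the authors' deposited table. Asxl3, from a family that works with the histone deubiquitinase BAP1, had a site 2142 bp upstream with 27.5 percentage points, the smallest gain of any member. Arid3a, an AT-rich DNA-binding factor of B cells, had a site in a satellite repeat in intron 3 of 8 with 41.6 percentage points by the authors' deposited table. Gadd45g, a stress-response gene whose family has been linked to DNA demethylation, had a site 123014 bp beyond its start with 42.1 percentage points.

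Sites within 1000 bp of each other and of the same direction made 26 regions, of which 6 had more than 1 site. These 6 were at Brd1, Chd9, Cxxc4, Kdm6b, Sirt4 and Smarcd1, and spanned 7 to 111 bp. In 4 of them all sites were on a single strand, where close cytosines can be read on the same reads. Regions, not sites, are therefore nearer to the number of separate measurements, and 23 of the 26 (88.5%) were hypermethylated in Tet1 KO cells. The same share over all 4242 regions of the lists was not computed. The 92.8% of all listed sites counts sites and is no like value for it.

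Arid3c, a relative of Arid3a, shows what the nearest start leaves out. It has a name under the rule, but 5 hypermethylated cytosines inside its transcripts were assigned in the tables to the neighbouring start of Dctn3, a dynactin gene, 1947 to 3909 bp away. They lay at 41672142 to 41674104 on chromosome 4 (mm9), in exons 5 and 6 and introns 3 and 5. Their values in the authors' deposited table were 38.5, 39.9, 52.1, 37.7 and 68.5 percentage points in order of position, with the highest above every member site. It was the single gene of this kind, found by matching the annotated transcripts to RefSeq after the data were seen. With it, the lists held 40 sites at 24 chromatin genes.

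Chromatin genes outside the name rule were listed at a like rate. Of 173 other genes of Polycomb, histone methylation, histone acetylation, DNA methylation and remodelling, 25 (14.5%) were nearest to a listed site, against 13.7% of all protein-coding genes. They held 36 sites, 30 gains and 6 losses. Gains were 83.3% of these sites (exact interval 67.2 to 93.6%), against 92.8% of all listed sites. The gains had a median of 40.4 percentage points. Sites of the losing direction were at 6 of the 25 genes, and 19 (76.0%) had hypermethylated sites alone, against 87.0% of all genes in the tables; the difference was not tested. On chromosome X, Bcor, a Polycomb-associated corepressor, had a loss at -34.2 percentage points in its last exon and a distant gain of 28.0, and Bcorl1, its relative, had an intronic loss at -29.9. Mecom, a stem cell factor with a PR domain, had an intronic loss at -40.0 percentage points by the authors' deposited table. Prdm8 had a loss at -33.3 percentage points in intron 1 and a gain of 49.9 upstream. The remodeller ATPase gene Ruvbl2 had a loss at -28.6 percentage points in intron 1, and Ss18, a BAF subunit, a distant loss at -32.9 in the authors' deposited table.

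Among these other genes, the most sites were nearest to Prdm14 and Prdm2, both of the PR domain family. Prdm14, a pluripotency and germ cell regulator, had 4 intergenic sites 22222 to 22727 bp beyond its start, 3 of them in a B1 SINE element, from 28.7 to 69.3 percentage points by the authors' deposited table. Prdm2 had 3 intergenic sites at least 187800 bp away, from 37.2 to 58.5 percentage points. Sfmbt2, an imprinted Polycomb gene, had intergenic gains of 34.3 and 53.5 percentage points, and Hr, a histone demethylase-like corepressor of skin, 2 gains in intron 2 of 42.0 and 42.3 in the authors' deposited table. Ercc6, a repair-coupled remodeller, had gains of 31.1 and 42.7 percentage points, and Ncoa3, a nuclear receptor coactivator, gains of 33.2 and 34.2. The promoter annotation, absent from the members, was given to 2 of the 36 sites. These were at Ogt, which glycosylates chromatin proteins and binds TET proteins, 178 bp from its start with 32.3 percentage points, and at Ino80e, 47 bp from its start with 31.9. The Ino80e site was labelled with the promoter of Hirip3, the gene beside it.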

How the data were processed

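The authors' deposited tables list hypermethylated and hypomethylated cytosines with a methylation difference in percentage points and, per the file headers, a distance in base pairs to the nearest transcription start (mm9). The submitters' processing notes name Bismark and mm9 and state no role for either. How sites were called, at what coverage and from which combination of replicates is not given in the sources used here. Read depth is unknown, and intervals cover counting error only.

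Python 3.11.15, pandas 2.3.3, SciPy 1.17.1 and matplotlib 3.10.9 were used. The sign of the distance turns with the strand of the cytosine and was turned back, so that 98.4% of 2826 sites inside their nearest gene fell downstream of its start. Positions are those of the cytosines. Sites under 1000 bp apart were joined into regions, per gene and direction. Gene identifiers and transcripts were matched to RefSeq for GRCm38.p6, which gave names, gene order and sequences, and no mm9 position.

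The members, roles and lists were chosen with earlier results of these data known. Named genes were those with 3 or more sites, a hypomethylated, promoter or island site, the Tet, Dnmt, Mbd and Cxxc families, the largest 5 gains and, by role, the rest. Of the list of other genes, 178 entries gave 173 reference genes, and those with a loss or the most sites were named. Where the fifth place was tied, all tied genes were named. Results for 1 member are not reported here, though counts over the members include it. Joining and intervals were tested on simulated data. No test between groups was made, since the tables used here hold 0 columns with values per sample.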

Additional observations from a re-analysis of the deposited data

How the results depend on the processing

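At a list minimum of 40 percentage points, 18 member sites at 14 genes and 14 regions were left, 100% of them hypermethylated, with a median gain of 48.0 percentage points by construction; the other chromatin genes fell to 13. Within 10000 bp of a start, 9 member genes were left, 100% of their sites hypermethylated, and 12 other genes. Without intergenic sites, introns held 87.0% of sites at 15 genes, and forward-strand sites alone covered 15 genes. Sites inside their own gene, chosen after the data were seen, left 12 genes with 100% of sites in introns. These changes follow from the sites removed. The same restrictions were not applied to all listed sites, so these shares have no whole-list value beside them and nothing is read from them. The other alternatives were set apart because their value stayed inside the 95% interval of the main result, so their ranges could not leave it. Over them the share of gains ranged from 88.5 to 94.7% (8 alternatives), the median gain from 39.1 to 43.1 percentage points (9) and the intron share from 47.4 to 71.4% (8). These alternatives were regions in place of sites, autosomes, nuclear products alone, leaving out Cxxc4, adding Arid3c and, where not given above, the restrictions already named. The autosomes kept all 35 member sites and so returned the main values. Joining within 200 or 5000 bp gave the same 26 regions. No replicate could be left out, and no paired analysis was possible because the tables hold no value per sample. With 35 sites, shares carry wide intervals, and the unknown coverage limits every single value.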
